A study of Mus musculus with 12 samples.

Results

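The subject is a set of 9 genes of B cell follicles and of the vessels that bring lymphocytes into lymphoid tissue: Cr2, Ms4a1, Cd79a, Cd79b, Cxcr5, Cxcl13, Ccl21a, Glycam1 and S1pr1. All probes whose accession maps to one of these genes were taken, which gave 12 probes of 56583, for 9 of 22905 named genes. The genes were chosen by these array-by-array levels, to describe how much follicle each piece of duodenum holds, so their own values are a description and carry no test. The duodenum of male mice, 7 weeks old at the start, was profiled on one-colour arrays in 4 groups of 3. These were Akp3-/- mice given IIAEK (KO IIAEK), Akp3-/- mice given vehicle (KO vehicle), wild-type mice given IIAEK (WT IIAEK) and wild-type mice given vehicle (WT vehicle). IIAEK, a peptide of 5 amino acids named by their one-letter codes, was given by mouth at 600 mg/kg per day for 14 days, the vehicle was carboxymethylcellulose sodium at 5 g/L, and all mice were fasted for 8 h before the tissue went into RNAlater. How the knockout was made and its strain background are not given in the sources used here, and some source labels give the dosing time in weeks where titles and design give 14 days.

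B cell follicles are the part of lymphoid tissue where B cells gather around follicular dendritic cells. In the small intestine they form Peyer's patches and smaller isolated follicles in the gut wall. Stromal cells of the follicle make the chemokine CXCL13, which draws in B cells that carry its receptor CXCR5. Lymphocytes enter from the blood through high endothelial venules, which display glycosylated ligands and the chemokine CCL21, and they leave along a gradient of the lipid sphingosine-1-phosphate, which they sense through S1PR1.

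Levels below are log2 processed intensities minus the 75th percentile of the array, so 0 is that percentile, and values of a group are given for replicates 1, 2 and 3 in that order. A level compares arrays for the same probe and not one probe with another. The share of probes well above background ran from 56.0% to 64.0% over the arrays and the 75th percentile of intensity from 195 to 466, with no saturated spot. The lowest of these percentiles was that of WT vehicle 3 and the highest that of WT vehicle 1. Akp3, which encodes an intestinal alkaline phosphatase, lay between -4.90 and -3.80 on the KO arrays and between 1.05 and 2.72 on the WT arrays, and was called in KO against WT under vehicle (-6.01, SE 0.37, limma adjusted p = 4.82e-05) and under IIAEK (-6.34, SE 0.37, limma adjusted p = 2.72e-05). The sources used here do not place the probe against the deleted stretch. That probe was well above background on 1 of 3 KO IIAEK arrays and 2 of 3 KO vehicle arrays. The other Akp3 probe was so on no KO array. The sizes of these differences therefore rest partly on values near background. The arrays were on 2 slides. Slide 1 held KO IIAEK 1 and 2, KO vehicle 1, WT IIAEK 1 and 2, and WT vehicle 1 and 2, and slide 2 held the other 5 arrays. The mean level of 8 enterocyte genes, such as Vil1 and Fabp1, lay between 7.35 and 8.11 on all 12 arrays. That shows enterocyte signal in every sample, and whether a piece was duodenum alone was not tested. Stomach mucous and pancreatic acinar genes were read as well and are given below.

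WT vehicle 1 and WT vehicle 2 had the 2 highest levels of the 12 arrays for each of the 9 genes, while the remaining mouse of that group, WT vehicle 3, lay near the other groups for most of them. The mean level over the 8 genes past the filter on dim probes was -1.53, -1.39 and -1.24 in KO IIAEK, -1.58, -1.22 and -1.49 in KO vehicle, -0.87, -1.80 and -1.69 in WT IIAEK, and 1.44, 0.86 and -1.36 in WT vehicle. The spread of the set was therefore larger within the WT vehicle group than between the other 3 groups. These 2 arrays were the 2 highest for 614 of the 26108 features tested, or 2.35%, against 8 of 8 of these genes past the filter and all 9 without it, where 1.82% of 45605 features had it so. That count follows from how the genes were chosen. The other 5 arrays on the slide of WT vehicle 1 and 2 had means between -1.80 and -0.87. In whole duodenum, more cells of a type and more RNA per cell cannot be told apart.

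**Figure D1:**
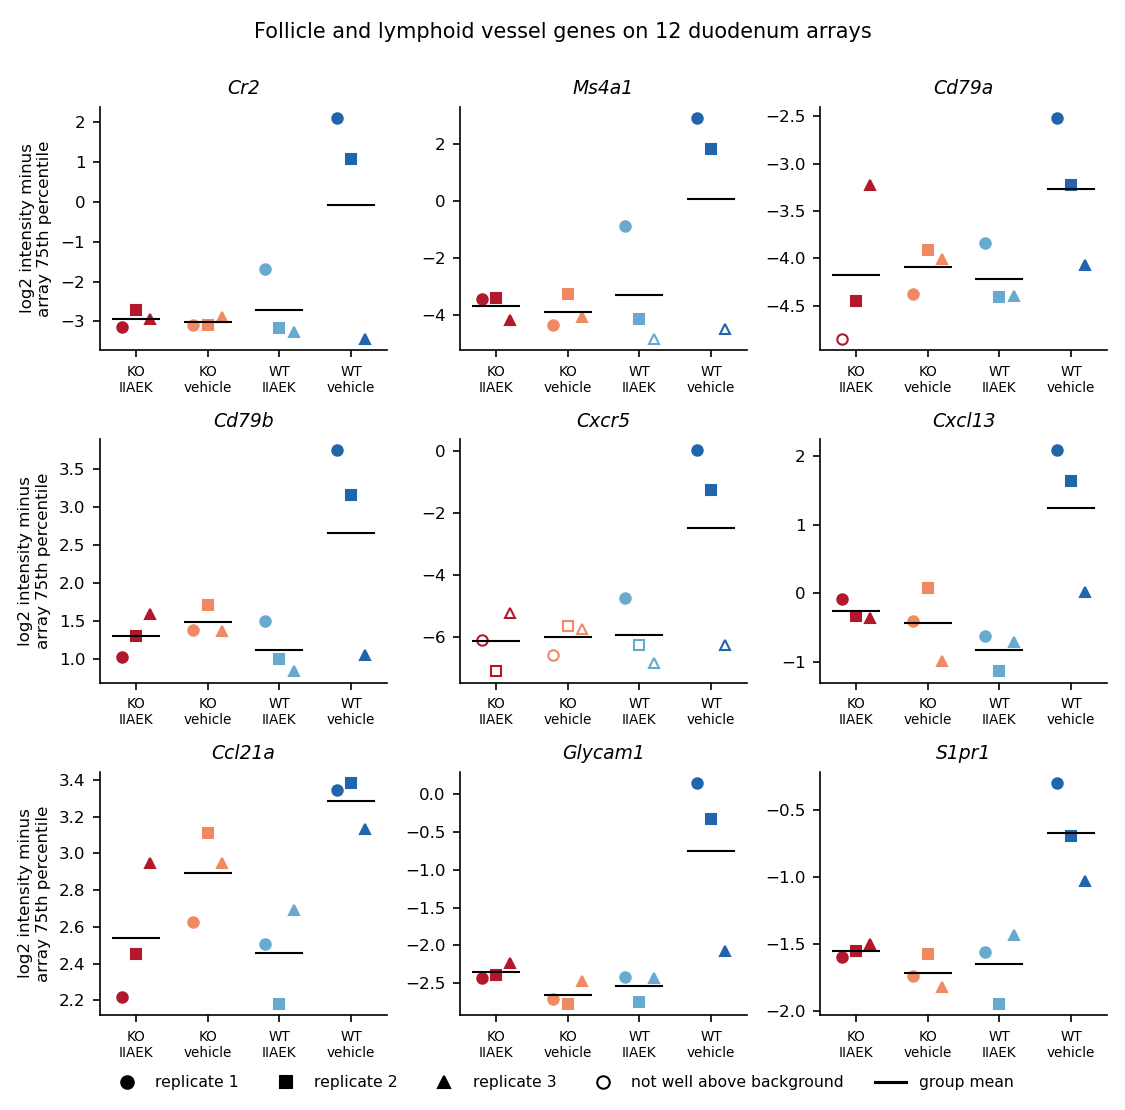
Level of each of the 9 genes (log2 processed intensity minus the array's 75th percentile; each panel has its own scale) on 12 arrays in the groups KO IIAEK, KO vehicle, WT IIAEK and WT vehicle. Each point is 1 array, its shape the replicate number; open points were not well above background and the line is the group mean (n = 3). WT vehicle 1 and 2 stand above the other 10 arrays in every panel, by 0.21 for Ccl21a and by 3.51 for Cxcr5, except that Cd79a was level between WT vehicle 2 and KO IIAEK 3.

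Cr2 encodes complement receptor CR2 (CD21), which follicular dendritic cells use to hold antigen and which serves as a co-receptor on mature B cells. Its brightest probe had levels of -3.15, -2.72 and -2.94 in KO IIAEK, -3.09, -3.09 and -2.89 in KO vehicle, -1.70, -3.17 and -3.27 in WT IIAEK, and 2.12, 1.07 and -3.44 in WT vehicle. Thus 2 WT vehicle arrays stood 2.77 or more above all others, WT IIAEK 1 came next, and WT vehicle 3 was the lowest of all 12. In processed intensity the probe read 2019 on WT vehicle 1 and 692 on WT vehicle 2, against 18.0 on WT vehicle 3. Of the other Cr2 probes, A_51_P208525 was well above background on 2 arrays, WT vehicle 1 at -0.96 and WT vehicle 2 at -1.33. Probe A_55_P2743452 was well above background on 5 arrays, with 0.19 and -0.78 on WT vehicle 1 and 2 and -3.41 on WT IIAEK 1 as the next. All 3 probes put the same 2 arrays first.

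**Figure D2:**
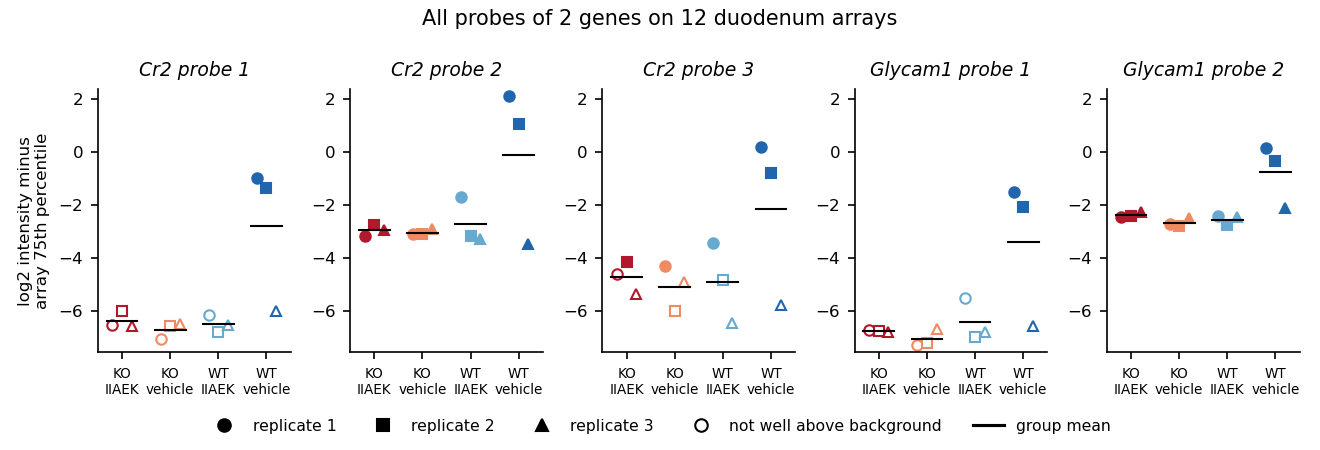
Levels of all probes of Cr2 (3 probes) and Glycam1 (2 probes) on the 12 arrays, on 1 shared scale of log2 processed intensity minus the array's 75th percentile; probes are numbered in the order of their identifiers. Points are arrays (open: not well above background) and lines are group means (n = 3). WT vehicle 1 and 2 are highest for all 5 probes, and the first probe of each gene was well above background on those 2 arrays alone.

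Ms4a1 encodes CD20, a membrane protein of B cells. Its level was -3.42, -3.41 and -4.16 in KO IIAEK, -4.36, -3.27 and -4.05 in KO vehicle, -0.86, -4.13 and -4.83 in WT IIAEK, and 2.92, 1.84 and -4.50 in WT vehicle. WT IIAEK 1 came next, 2.70 below WT vehicle 2, and the probe was not well above background on WT IIAEK 3 and WT vehicle 3. Within the WT vehicle group the SD was 4.01 (n = 3), against 0.43, 0.56 and 2.12 in KO IIAEK, KO vehicle and WT IIAEK. The processed intensity was 3536 and 1176 on WT vehicle 1 and 2 and 8.63 on WT vehicle 3.

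Cd79a and Cd79b encode the signalling chains of the B cell receptor, Igα and Igβ. Cd79b had levels of 1.03, 1.31 and 1.59 in KO IIAEK, 1.38, 1.71 and 1.37 in KO vehicle, 1.5, 1.0 and 0.84 in WT IIAEK, and 3.74, 3.16 and 1.05 in WT vehicle. WT vehicle 1 and 2 lay 1.45 or more above the other 10 arrays, which spanned 0.88. Cd79a was dim, with -4.85, -4.45 and -3.23 in KO IIAEK, -4.37, -3.92 and -4.00 in KO vehicle, -3.83, -4.41 and -4.40 in WT IIAEK, and -2.52, -3.23 and -4.07 in WT vehicle. Its probe was well above background on 11 arrays, KO IIAEK 1 being the exception, and KO IIAEK 3 was level with WT vehicle 2. Cd79a therefore separated WT vehicle 1 alone from the rest.

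Cxcr5, the gene for the chemokine receptor that guides B cells and follicular helper T cells into follicles, was well above background on 3 arrays: WT vehicle 1 at 0.02, WT vehicle 2 at -1.25 and WT IIAEK 1 at -4.76. On the other 9 arrays its level lay between -7.12 and -5.22, not well above background, where values have no order. It is the 1 gene of the 9 that did not pass the filter. No KO vehicle array measured it. With these arrays set no lower than their dimmest signal well above background, KO vehicle was 5.29-fold below the mean of the WT vehicle group. Of that group 2 of 3 arrays measured it. The mean includes WT vehicle 3 at -6.28, not well above background, so 5.29-fold is no strict lower limit for the group.

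Cxcl13, the gene for the ligand of CXCR5, had levels of -0.08, -0.33 and -0.35 in KO IIAEK, -0.40, 0.07 and -0.99 in KO vehicle, -0.62, -1.14 and -0.70 in WT IIAEK, and 2.09, 1.63 and 0.01 in WT vehicle. WT vehicle 1 and 2 lay 1.56 or more above KO vehicle 2, the next array. WT vehicle 3 was above all 3 WT IIAEK arrays and below KO vehicle 2. Under IIAEK all 3 KO arrays were above all 3 WT arrays.

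Ccl21a encodes the CCL21 chemokine that T zone stroma, high endothelial venules and, as a near-identical paralog, lymphatic vessels of mice make. The paralogs Ccl21b and Ccl21c are so alike in sequence that the probe may read them too, and no probe was named Ccl21b. Its level was 2.22, 2.45 and 2.95 in KO IIAEK, 2.62, 3.11 and 2.95 in KO vehicle, 2.51, 2.18 and 2.69 in WT IIAEK, and 3.35, 3.38 and 3.13 in WT vehicle. All 3 WT vehicle arrays were the highest of the 12, WT vehicle 3 being only just above KO vehicle 2. The 12 arrays ran from 2.18 on WT IIAEK 2 to 3.38 on WT vehicle 2.

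Glycam1 encodes a mucin-like adhesion ligand made by high endothelial venules, and also a milk protein. Its brighter probe read -2.43, -2.39 and -2.24 in KO IIAEK, -2.71, -2.78 and -2.47 in KO vehicle, -2.41, -2.75 and -2.44 in WT IIAEK, and 0.15, -0.32 and -2.08 in WT vehicle. WT vehicle 3 came next, 1.76 below WT vehicle 2. The other probe, A_52_P602847, was well above background on WT vehicle 1 (-1.50) and WT vehicle 2 (-2.07) alone, with WT vehicle 3 at -6.54.

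S1pr1 encodes the sphingosine-1-phosphate receptor that lymphocytes use to leave lymphoid tissue and that endothelial cells also carry. Its level was -1.60, -1.55 and -1.50 in KO IIAEK, -1.74, -1.58 and -1.82 in KO vehicle, -1.56, -1.95 and -1.43 in WT IIAEK, and -0.29, -0.69 and -1.03 in WT vehicle. All 3 WT vehicle arrays were above the other 9, of which WT IIAEK 3 was the highest at -1.43, so for S1pr1 WT vehicle 3 went with its group.

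The order of the group means was WT vehicle first for all 9 genes, and for all but Ccl21a the other 3 means lay closer to each other than to that of WT vehicle. The means of Ccl21a were 2.54 in KO IIAEK, 2.90 in KO vehicle, 2.46 in WT IIAEK and 3.29 in WT vehicle, so that KO vehicle stood nearer to WT vehicle than to WT IIAEK. For Cd79b the means were 1.31 ± 0.28 in KO IIAEK, 1.49 ± 0.20 in KO vehicle, 1.11 ± 0.35 in WT IIAEK and 2.65 ± 1.41 in WT vehicle (SD, n = 3 each). For Cr2 they were -2.94 ± 0.21, -3.02 ± 0.11, -2.71 ± 0.88 and -0.08 ± 2.95 in the same order. The WT vehicle mean of either gene is less than 2 of its own SD from each of the others, while the remaining neighbours differ by less than 1 SD of WT IIAEK. For S1pr1 the WT vehicle mean, -0.67 ± 0.37, lay above -1.55 ± 0.05 in KO IIAEK, -1.71 ± 0.13 in KO vehicle and -1.65 ± 0.27 in WT IIAEK by more than 2 SD of any of these groups.

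Promoter sequence was at hand for 5 of the 9 genes (Cr2, Cd79a, Cxcl13, Ccl21a and Glycam1) in a RefSeq table of GRCm38.p6 that holds 32851 windows of 300 bases, 250 before to 50 after the annotated start. Those of Cd79a, Cr2 and Cxcl13 are shown as a B cell receptor chain, a receptor shared by B cells and follicular dendritic cells, and a stromal chemokine, each as the 250 bases before the start, 5′ to 3′ on the strand of the gene. Capitals mark the letters CAGGTG or their complement CACCTG (an E-box), AGGAAG (an ETS core) and TATAAA.
Cd79a, chr7:24897247-24897496, plus strand: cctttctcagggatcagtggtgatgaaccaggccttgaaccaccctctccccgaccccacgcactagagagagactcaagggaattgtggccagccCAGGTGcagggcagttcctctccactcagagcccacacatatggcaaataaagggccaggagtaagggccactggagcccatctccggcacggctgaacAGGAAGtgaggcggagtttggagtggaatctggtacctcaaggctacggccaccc
Cr2, chr1:195176720-195176969, minus strand: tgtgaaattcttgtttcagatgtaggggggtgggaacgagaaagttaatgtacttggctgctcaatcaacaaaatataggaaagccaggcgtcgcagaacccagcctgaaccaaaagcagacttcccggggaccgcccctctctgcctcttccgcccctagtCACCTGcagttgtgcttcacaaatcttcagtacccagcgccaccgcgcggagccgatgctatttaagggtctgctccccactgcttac
Cxcl13, chr5:95956689-95956938, plus strand: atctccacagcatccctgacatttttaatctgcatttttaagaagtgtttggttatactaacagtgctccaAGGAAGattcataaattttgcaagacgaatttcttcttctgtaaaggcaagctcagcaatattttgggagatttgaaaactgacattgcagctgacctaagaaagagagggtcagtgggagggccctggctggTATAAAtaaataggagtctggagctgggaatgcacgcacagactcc
Motifs were searched on both strands of the 300 bases. CAGGTG was present in 3 of the 5 windows (Cr2, Cd79a and Glycam1) and in 20.2% of all windows, and AGGAAG in 4 of 5 (Cd79a, Cxcl13, Ccl21a and Glycam1) and in 35.4% of all. TATAAA was present in Cxcl13 alone and in 13.6% of all windows. The octamer ATGCAAAT, which OCT proteins bind in many B cell promoters, and the EBF letters CCCNNGGG were in none of the 5, and in 1.74% and 13.7% of all windows. These are letters in short windows and describe no binding.

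The comparison of KO with WT under vehicle asks what loss of Akp3 does without the peptide. All 8 genes past the filter were lower in KO vehicle, with a median difference of -1.42, against a median of 0.03 over all 26108 features. The differences, KO minus WT on the log2 scale, were -2.94 for Cr2 (SE 1.08), -3.98 for Ms4a1 (SE 1.60), -0.82 for Cd79a (SE 0.46) and -1.16 for Cd79b (SE 0.53). They were -1.68 for Cxcl13 (SE 0.45), -0.39 for Ccl21a (SE 0.21), -1.90 for Glycam1 (SE 0.44) and -1.04 for S1pr1 (SE 0.20). For Cxcr5, which no KO vehicle array measured, the ratio given above stands in place of a difference and is no strict bound. None of the 8 was called at a limma adjusted p under 0.05, where 2 of 26108 features (0.00766%) were. KO and WT arrays did not overlap for 3 of the 8, all lower in KO (Ccl21a, Glycam1 and S1pr1), against 5.84% of all features. The genes were chosen by the levels on these arrays, so this count is no test.

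Most of these differences shrank or turned when 2 mice were left out. Without WT vehicle 1 and 2, a choice made after seeing the values, the median difference was -0.13, and it was 0.42 for Cr2, 0.61 for Ms4a1 and 0.43 for Cd79b, no longer negative. With that 1 remaining WT vehicle array, assumed to vary like the other groups, S1pr1 was still -0.69 (SE 0.26), Glycam1 -0.57 (SE 0.26) and Cxcl13 -0.45 (SE 0.38). Without WT vehicle 3 the median was -2.13 and 4 of the 8 (Cr2, Cd79b, Cxcl13 and Glycam1) passed the threshold, as did 0.0689% of all features. That count follows from choosing the genes by these arrays and is no test. Within slide 1, which holds WT vehicle 1 and 2 and 1 KO vehicle array, the median difference was -2.17, and within slide 2, with WT vehicle 3 and 2 KO vehicle arrays, it was 0.01. The 6 stomach mucous genes, listed as markers of another tissue, also lay below 0, with a median of -4.03, and -4.11 without WT vehicle 1 and 2, 0.12 within slide 1 and -5.85 within slide 2. Their part in the result was not tested.

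**Figure D3:**
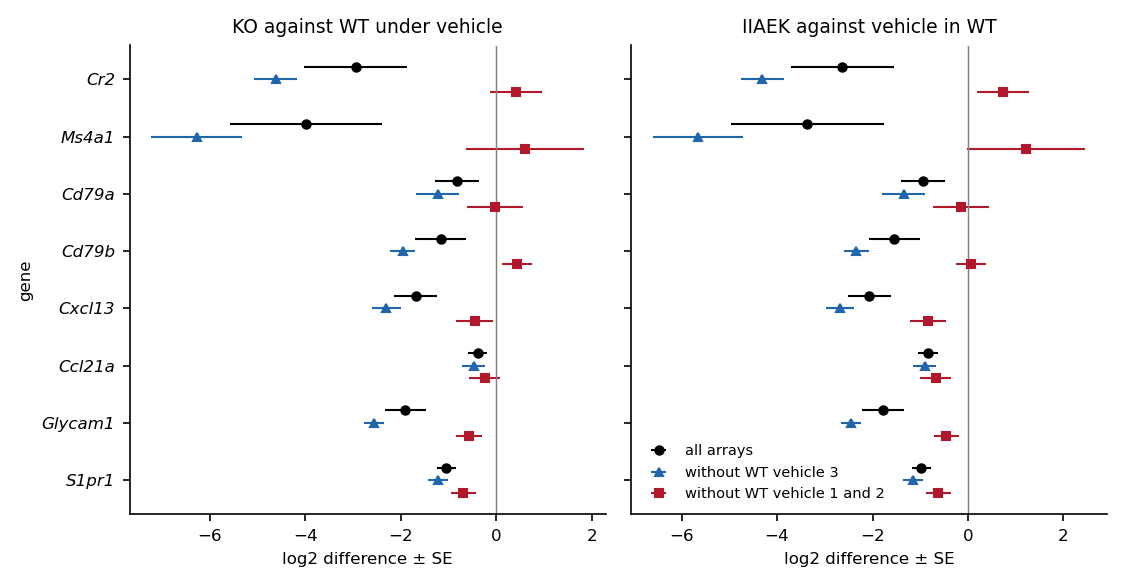
Log2 difference (± SE from limma) of the 8 genes past the filter for KO against WT under vehicle (left) and IIAEK against vehicle in WT (right), with all 12 arrays, without WT vehicle 3, and without WT vehicle 1 and 2. The differences of Cr2 and Ms4a1 under vehicle change from -2.94 and -3.98 with all arrays to 0.42 and 0.61 without WT vehicle 1 and 2, while S1pr1 stays below 0 in both panels.

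IIAEK against vehicle in WT shares the WT vehicle arrays with the comparison above, and asks what the peptide does where Akp3 is present. The median difference of the 8 genes was -1.66, against 0.03 over all features, and all 8 were lower under IIAEK. The differences, IIAEK minus vehicle, were -2.63 for Cr2, -3.36 for Ms4a1, -0.94 for Cd79a and -1.54 for Cd79b. They were -2.07 for Cxcl13, -0.83 for Ccl21a, -1.78 for Glycam1 and -0.98 for S1pr1, with the SE of each gene as above. None of the 8 was called, and 0 of 26108 features (0%) were by limma, while at an unadjusted p under 0.05 there were 444 features above and 373 below vehicle. IIAEK arrays lay below vehicle arrays without overlap for 4 of the 8 (Cxcl13, Ccl21a, Glycam1 and S1pr1), against 3.7% of all features. That count, too, is of genes chosen by these arrays and is no test. Without WT vehicle 1 and 2 the median was -0.30, with 0.73 for Cr2, 1.22 for Ms4a1 and 0.06 for Cd79b, and with -0.84 for Cxcl13, -0.67 for Ccl21a and -0.62 for S1pr1. Without WT vehicle 3 the median was -2.39 and Cr2, Cd79b, Cxcl13 and Glycam1 passed the threshold, as did 0.0651% of all features, again no test of genes chosen by these arrays. The median was -2.35 within slide 1 and -0.35 within slide 2. The stomach mucous genes had differences of the same sign and larger size, 6 of 6 below 0 with a median of -3.67, none at an unadjusted p under 0.05. Their median was -3.84 without WT vehicle 1 and 2, -5.94 within slide 1 and 1.5 within slide 2, and their part in the result was not tested. The 7 pancreatic acinar genes had medians of 1.77 in KO against WT under vehicle and 1.85 here, and -0.26 and -0.41 without WT vehicle 1 and 2.

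Where the WT vehicle arrays do not enter, the genes differed little. KO against WT under IIAEK gave a median of 0.09, with single genes between -0.39 for Ms4a1 and 0.57 for Cxcl13, and 1 gene without overlap (Cxcl13, higher in KO), against 1.65% of all features. IIAEK against vehicle in KO gave a median of 0.13, with single genes between -0.36 for Ccl21a and 0.30 for Glycam1, and 1 gene without overlap (Glycam1, higher under IIAEK), against 1.98% of all features. None of the 8 was called in either, where 2 of 26108 (0.00766%) and 0 of 26108 (0%) features were. The difference between genotypes in the IIAEK effect, which rests on all 4 groups, was positive for all 8, with a median of 1.72 and single values from 0.47 for Ccl21a to 3.59 for Ms4a1. It fell to a median of 0.19 without WT vehicle 1 and 2. None of the 8 was called for this difference with all arrays, nor was any of the 26108 features (0%). Without WT vehicle 3, Glycam1 passed the threshold, 1 of 26108 features (0.00383%), which is again no test of a gene chosen by these arrays.

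Other lists of lymphoid genes were set beside the 9 to see which cells and structures varied with them. Of 22 other B cell genes, 20 had a probe and 16 passed the filter, and for 12 of the 16 WT vehicle 1 and 2 were the 2 highest arrays, against 2.35% of all features. These include Tnfrsf13c, the receptor for the survival factor BAFF, at -2.20, -1.95 and -1.73 in KO IIAEK, -1.94, -1.80 and -2.07 in KO vehicle, -1.20, -1.74 and -2.53 in WT IIAEK, and 1.54, 0.53 and -2.45 in WT vehicle. As for Cr2 and Ms4a1, WT IIAEK 1 came next below the 2 high arrays and WT vehicle 3 was among the low ones. Vpreb3 and Spib, a transcription factor of B cells and M cells, were among the 12 as well. Pax5, Pou2af1, Ly6d and Cd180 were not. In limma's test of KO against WT under vehicle, 6 of the 16 were lower at an unadjusted p under 0.05, as were 444 of 26108 features. The median difference of the 16 was -0.79 with all arrays and 0.37 without WT vehicle 1 and 2. It was -1.38 within slide 1 and 0.30 within slide 2, so its direction rested on those arrays. None of the 16 was called at an adjusted p under 0.05, where 2 of 26108 features (0.00766%) were. The list was chosen with earlier results of these data known. Spib was -1.36 (SE 0.47) and Ebf1, an early B cell factor, -0.84 (SE 0.27), each with a limma adjusted p = 0.993.

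Genes of the germinal centre, the part of a follicle where activated B cells divide and mutate their antibody genes, went partly with the 9. For 3 of the 5 past the filter (Bcl6, Mybl1 and Pdcd1) the same 2 arrays were highest. Bcl6, the master regulator of germinal centre B cells, which other cells also express, had levels of 1.49, 1.41 and 1.0 in KO IIAEK, 1.14, 1.12 and 1.18 in KO vehicle, 1.94, 1.94 and 1.90 in WT IIAEK, and 2.52, 2.45 and 1.76 in WT vehicle. All KO arrays were below all WT arrays, and the differences were -1.10 under vehicle (SE 0.20, limma adjusted p = 0.407) and -0.63 under IIAEK (SE 0.20, limma adjusted p = 1.0). With all arrays neither was called, and under vehicle 5.84% of all features had KO arrays below WT arrays without overlap. Without WT vehicle 3, the lowest array of its group for this gene, Bcl6 was called under vehicle at -1.34, as 1 of 18 of 26108 features (0.0689%). Leaving out the lowest array of a group widens the gap, and the list was chosen with earlier results known, so this call is no test.

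**Figure D4:**
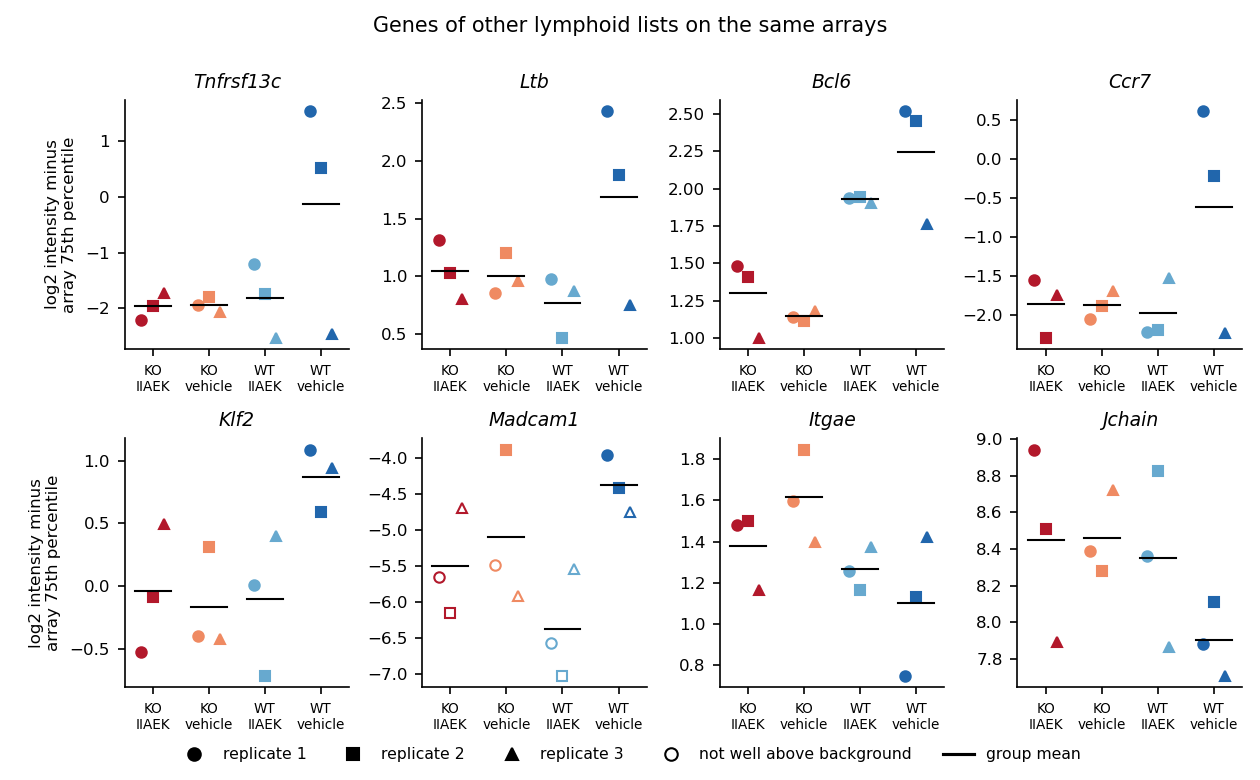
Levels (log2 processed intensity minus the array's 75th percentile, own scale per panel) of 8 genes of other lists, in the groups KO IIAEK, KO vehicle, WT IIAEK and WT vehicle: Tnfrsf13c (B cells), Ltb (lymphoid organizer), Bcl6 (germinal centre), Ccr7 and Klf2 (lymphocyte traffic), Madcam1 (venules), Itgae (intraepithelial lymphocytes) and Jchain (plasma cells). Points are arrays (open: not well above background) and lines are group means (n = 3). Tnfrsf13c, Ltb and Ccr7 are highest on WT vehicle 1 and 2, with WT vehicle 3 among the other arrays, whereas Itgae is lowest on WT vehicle 1 and Jchain spans 7.71 to 8.94.

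Genes that organize lymphoid tissue or belong to its stroma followed in 4 of 18 cases (Ltb, Enpp2, Gpr183 and Ccr7). Ltb encodes lymphotoxin beta, with which lymphocytes keep the stroma in its follicular state, and read 1.32, 1.02 and 0.80 in KO IIAEK, 0.85, 1.20 and 0.96 in KO vehicle, 0.98, 0.47 and 0.87 in WT IIAEK, and 2.43, 1.88 and 0.75 in WT vehicle. Ccr7, the receptor for CCL21 and CCL19, read 0.60, -0.22 and -2.23 in WT vehicle and between -2.29 and -1.53 on the other 9 arrays. In KO against WT under vehicle it was -1.26 (SE 0.56), and Mfge8, made by follicular dendritic cells among others, was -1.05 (SE 0.35), each with a limma adjusted p = 0.993. Ccl19, the other CCR7 ligand, was -2.38 in IIAEK against vehicle in WT (SE 0.88, limma adjusted p = 0.999), but its highest arrays were WT vehicle 1 (-1.12) and KO vehicle 2 (-1.21).

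Most other vessel genes did not join the vessel genes of the set. For 1 of 8 high endothelial venule genes past the filter (Gcnt1) and 0 of 7 lymphatic vessel genes were WT vehicle 1 and 2 the 2 highest arrays. Madcam1, which marks venules of gut lymphoid tissue, did not pass the filter and is outside that count. It was well above background on 3 arrays, at -3.95 on WT vehicle 1, -4.42 on WT vehicle 2 and -3.88 on KO vehicle 2. Lyve1, of lymphatic endothelium, lay between -0.75 and -0.22 on all 12 arrays. The median difference in KO against WT under vehicle was 0.04 for the venule list and -0.05 for the lymphatic list. Glycam1, Ccl21a and S1pr1 are therefore described singly, and of the 2 names in the label, other B cell genes went with the set and other vessel genes mostly did not.

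S1pr1 was set beside other genes of lymphocyte egress and homing. Klf2, the transcription factor that drives S1pr1 in lymphocytes and is also an endothelial gene, had levels of -0.53, -0.09 and 0.49 in KO IIAEK, -0.39, 0.31 and -0.42 in KO vehicle, 0.01, -0.71 and 0.40 in WT IIAEK, and 1.09, 0.59 and 0.94 in WT vehicle. As for S1pr1, all 3 WT vehicle arrays were the highest, and Klf2 was -1.04 in KO against WT under vehicle (SE 0.33, limma adjusted p = 0.993) and -0.97 in IIAEK against vehicle in WT (SE 0.33, limma adjusted p = 0.999). Without WT vehicle 1 and 2 these were -1.11 and -1.04. Of the 10 egress genes past the filter 1, Cd69, had WT vehicle 1 and 2 as its 2 highest arrays.

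Markers of other cells and tissues were read on the same arrays. Of 11 naive T cell genes past the filter, 2 followed (Tcf7 and Lef1), and of 6 genes of follicle-associated epithelium and M cells 1 did (Ccl20). None of 7 intraepithelial lymphocyte, 8 plasma cell, 7 blood endothelial, 5 fat cell, 6 stomach mucous, 7 pancreatic acinar, 6 smooth muscle or 8 enterocyte genes had WT vehicle 1 and 2 as its 2 highest arrays. The 6 stomach mucous genes had a mean level between 5.43 and 6.98 on 6 arrays, all 3 WT vehicle arrays, KO IIAEK 3, KO vehicle 1 and WT IIAEK 3, and between -1.67 and 0.11 on the other 6. The 7 pancreatic acinar genes averaged 3.09 on WT vehicle 1 and between 7.85 and 9.76 on the other 11 arrays. The fat cell genes were also low on WT vehicle 1, at -2.97, and on KO vehicle 1, at -2.52, against -2.04 to -0.23 elsewhere. On WT vehicle 2, which was second for most of the 9 genes, the pancreatic mean was 8.74 and the fat mean -1.24, both within the range of the other arrays, and the part of these tissues in the results was not tested.

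**Figure D5:**
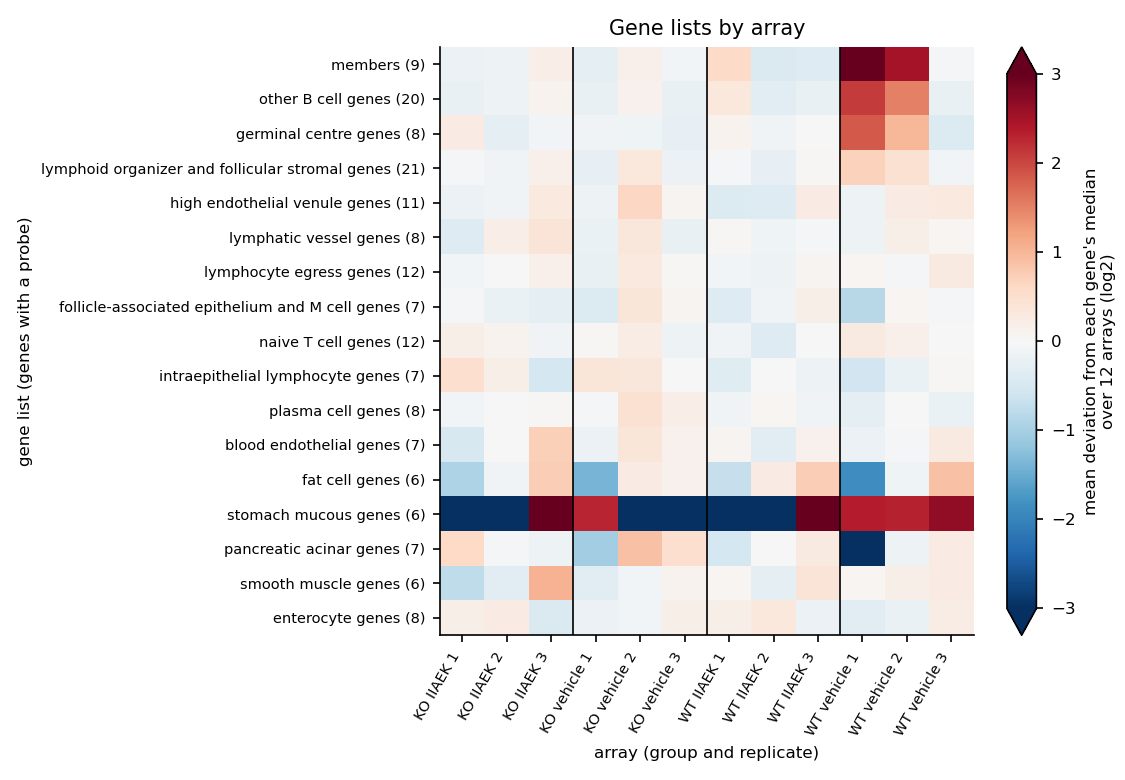
Mean deviation of each gene list from its genes' medians over 12 arrays (colour, log2; the scale stops at 3 and -3), with lists as rows (in brackets the genes with a probe) and arrays as columns. The 9 genes, other B cell genes and germinal centre genes are high on WT vehicle 1 and 2, while the stomach list is high on 6 arrays and the pancreatic list is low on WT vehicle 1.

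The genes most like the set were found by their correlation with the mean level of the 8 genes over the 12 arrays, as a description, since arrays share their groups and the value rests mainly on WT vehicle 1 and 2. Of the first 10 named genes outside the set, 9 were Tnfrsf13c (r = 0.972), A630001G21Rik (0.964), Hvcn1 (0.955), Bfsp2 (0.954), Klhl6 (0.948), Lef1 (0.943), Ccr6 (0.943), Tspan32 (0.941) and H2-Ob (0.941). Over the 10 arrays without WT vehicle 1 and 2 the same correlations were 0.682 for Bfsp2, 0.663 for Tspan32 and 0.615 for Tnfrsf13c, and 0.0997 for Lef1. Among the 9 genes themselves, the 36 pairs had correlations from 0.52 to 0.98 over 12 arrays, with a median of 0.86, and from -0.24 to 0.91 over the other 10, with a median of 0.27. With a gap of at least 1 log2 unit between the second and the third array, a size chosen after the values were seen, 27 of 26108 features (0.103%) had WT vehicle 1 and 2 on top. Of these, 19 were named: 5 of the set (Cr2, Ms4a1, Glycam1, Cxcl13 and Cd79b), 5 of the B cell list (with Tnfrsf13c, H2-Ob, Ccr6 and Vpreb3), Ccr7 and Gpr183, and 7 in no list (H2-Eb2, Fcrl1, Bfsp2, Klhl6, Il4i1, Cxcr4 and B3gnt5).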

How the data were processed

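RNA of 12 duodenum samples, 3 per group, was measured on 1 array each. The deposited scanner files came from Feature Extraction 10.7.3.1, per the file headers, and hold a background-subtracted processed intensity for each spot, not scaled between arrays, with the median raw intensity and the local background. The deposited value table of the authors holds log2 values, and how they were made is not stated. They matched log2 processed intensity minus the array's 75th percentile and then minus the median of each probe, with correlations from 0.999997 to 0.999999 per array, so the scale is log2, the centring is by probe, and the direction that of the intensity. Its column medians were 0.12, -0.04 and 0.08 for KO IIAEK, -0.05, -0.09 and 0.09 for KO vehicle, -0.06, 0.04 and 0.07 for WT IIAEK and -0.07, -0.08 and 0.13 for WT vehicle.

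Control spots and spots flagged as outliers were dropped (22 of 56605 probes had no spot left on some array), log2 values of repeated spots were averaged, and the array's 75th percentile was subtracted. Accessions were matched to a RefSeq table of GRCm38.p6, which named 32978 probes. The headers give mm9, so no probe coordinates are printed. A probe had to be read well above background in all 3 replicates of some group, and the one with the highest mean stood for a gene, leaving 26108 features (15584 named genes). limma 3.58.1 in R 4.3.3 fitted 1 mean per group over 12 arrays with an intensity trend, and p-values were adjusted by Benjamini-Hochberg over all features, two-sided, with calls under 0.05. The fit was checked on simulated data. The number of arrays limits the precision: the median SE was 0.243 between groups and 0.344 for the difference between genotypes. The labels do not say whether samples of a group were handled apart, so p-values measure only the spread between them.

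The genes, the other lists and the rules were chosen with earlier results of these data known. Named genes are Akp3, the 9 genes and, of every other list, called genes or up to 3 with the smallest p in a comparison, given here where the unadjusted p was under 0.05. A few listed genes are not reported here. The titles number the replicates. Deviations from the group means over all features correlated between same-numbered arrays at 0.54, 0.12 and 0.18 for KO vehicle with WT vehicle. For WT IIAEK with WT vehicle they correlated at 0.36, 0.16 and 0.43, all over 0.1. Some differently numbered arrays of these 2 comparisons correlated as highly. KO vehicle 2 with WT vehicle 3 gave 0.41, and WT IIAEK 2 with WT vehicle 1 gave 0.17. Same-numbered arrays gave 0.04, 0.47 and 0.70 for KO IIAEK with WT IIAEK. For KO IIAEK with KO vehicle they gave 0.05, -0.25 and -0.22. Whether the numbers pair the arrays cannot be told from these values. Alternatives were normexp background correction (offset 50, on the median signal, since no mean signal was in the files, where the mean signal had been planned), quantile normalization, no filter, mean of probes, no trend, the deposited table, slide or replicate number as a block, each slide alone, leaving out each array, and leaving out WT vehicle 1 and 2.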

Additional observations from a re-analysis of the deposited data

Results flagged for a closer look

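Glycam1 had differences of opposite sign between IIAEK and vehicle in the 2 genotypes, neither of them called. The values are those of its brighter probe. The other probe was well above background on WT vehicle 1 and 2 alone, so it gives no direction in KO. In KO all 3 IIAEK arrays (-2.43, -2.39 and -2.24) were above all 3 vehicle arrays (-2.71, -2.78 and -2.47), a difference of 0.30. Its SE, 0.44, was larger than that, but came from a spread shared by the 4 groups. The SD was 0.10 in KO IIAEK and 0.16 in KO vehicle, against 0.19 in WT IIAEK and 1.18 in WT vehicle. In WT all 3 IIAEK arrays (-2.41, -2.75 and -2.44) were below all 3 vehicle arrays (0.15, -0.32 and -2.08), a difference of -1.78 (SE 0.44). Glycam1 was chosen by these array-by-array levels, so its values here are a description and no test. The difference between the 2 effects was 2.08 (SE 0.62) and was not called. It was 0.75 without WT vehicle 1 and 2, 2.75 without WT vehicle 3, and 2.79 and 0.75 within slides 1 and 2.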

How the results depend on the processing

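Of the counts and medians of the 9 genes and their mean levels per group, 240 values under the alternatives kept the main result within its spread and 16 moved. The median difference of KO against WT under vehicle, -1.42, was 0.0069 within slide 2, -0.13 without WT vehicle 1 and 2 and -0.0225 without those 2 arrays and without the filter, which adds Cxcr5 where it is near background. For IIAEK against vehicle in WT, -1.66, it was -0.35, -0.30 and -0.14, and for the difference between genotypes, 1.72, it was 0.48, 0.19 and 0.0599, in the same order. Leaving out 1 array at a time, the number of the genes called ran from 0 to 4 for KO against WT under vehicle and for IIAEK against vehicle in WT, and from 0 to 1 for the difference between genotypes, the 4, 4 and 1 coming without WT vehicle 3; these counts, and that within slide 1, follow from the choice of the genes by these arrays and are no test. Over the same alternatives the medians ran from -2.13 to -1.06, from -2.39 to -1.16 and from 1.28 to 2.45. Within slide 1, where WT vehicle 1 and 2 are the only WT vehicle arrays, 5 genes were called for IIAEK against vehicle in WT. In the same setting 257 of 26108 features (0.984%) were called. Normexp moved the mean level to -0.65 in KO IIAEK, -0.64 in KO vehicle and -0.70 in WT IIAEK, against -1.39, -1.43 and -1.45; the WT vehicle mean was 0.64 against 0.31.

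Among the 8 genes past the filter, single differences changed sign 25 times in the 3 comparisons that WT vehicle enters. Each alternative counts once, so the same change without WT vehicle 1 and 2 is counted both with and without the filter. Without WT vehicle 1 and 2, with or without the filter, Cr2, Ms4a1 and Cd79b were 0.42, 0.61 and 0.43 in KO against WT under vehicle, 0.73, 1.22 and 0.06 in IIAEK against vehicle in WT, and -0.64, -0.99 and -0.24 for the difference between genotypes. Within slide 2, Cr2, Ms4a1, Cd79b and Cd79a were 0.45, 0.84, 0.49 and 0.11 in the first of these comparisons, Cr2 was 0.17 in the second, and Cr2 and Ms4a1 were -0.12 and -0.17 in the third. In the other 2 comparisons there were 26 sign changes, of differences that lay between -0.39 and 0.23 with all arrays. Of the tested genes outside the set, 11 values changed sign, counted in the same way. In KO against WT under vehicle within slide 2, without WT vehicle 1 and 2, and without them and the filter, Mybl1 was 0.33, 0.0801 and 0.0801, Ccr7 0.44, 0.36 and 0.36, and Lef1 0.0875, 0.0469 and 0.0469. Within slide 2, Cd8b1 was -0.13 in KO against WT under IIAEK and Spib 0.24 in IIAEK against vehicle in WT. The cause of these changes was not tested beyond the arrays left out.

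With the replicate block, 0 of the genes were called in any of the 5 comparisons and the medians stayed -1.42 and -1.66 for KO against WT under vehicle and IIAEK against vehicle in WT, since the groups are balanced over the replicate numbers. The block changed no call of a gene named here, and the features called stayed 2, 2, 0, 0 and 0 over the comparisons. Cxcr5 and other probes near background have no order there, and signal over background limits what can be said of them.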

Other observations

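Some follicle genes were too dim to pass the filter and were picked out after their values were seen. Fcmr, which encodes the Fc receptor for IgM, read 1.19 and -0.30 on WT vehicle 1 and 2, against -4.99 on WT vehicle 3 and -7.10 to -3.74 on the other 9 arrays, and was well above background on 4 arrays. Fcer2a, which encodes CD23 of mature B cells, read -1.02 and -1.79 on WT vehicle 1 and 2, the 2 arrays on which it was well above background. Lta, which encodes lymphotoxin alpha, read -2.29 and -3.26 there and -6.13 on WT vehicle 3.

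Gp2, the gene of an M cell receptor that pancreatic acinar cells also make, read 2.32 on WT vehicle 1 and between 6.55 and 9.04 on the other 11 arrays, the same array on which the pancreatic genes were low. Other genes of the lists gave single values under an unadjusted p of 0.05 that were not called by limma. In KO against WT under IIAEK, Tnfsf13b, the gene of BAFF, was -0.63 (limma adjusted p = 1.0), and the T cell genes Cd5 and Cd8b1 were 0.72 and 0.69 (limma adjusted p = 1.0 for both). In IIAEK against vehicle in KO, Tnfsf13b was -0.48 (limma adjusted p = 1.0). Itgae, of intraepithelial lymphocytes, was 0.52 and Sphk1, a sphingosine kinase, 0.40 in KO against WT under vehicle (limma adjusted p = 0.993 for both). In IIAEK against vehicle in WT, Tnfrsf11a, the gene of the receptor RANK, was 0.73 and Cd37 of B cells -0.95 (limma adjusted p = 0.999 for both).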
